A study of Homo sapiens with 72 samples.

Results

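IGROV1 is an ovarian cancer cell line that expresses LIN28A, and it was edited at TUT4 and TUT7, the enzymes that add uridines to the 3′ end of miRNAs. The small RNA of both edited clones was compared here: 4 libraries of TUT4/7 cKO #1 (mutant_1, cKO #1 below) with 4 libraries of TUT4/7 cKO #2 (mutant_2, cKO #2 below), 8 of the 72 samples in the series, of which 36 are small RNA. The libraries were taken by their labels, without use of any measured value, and 4 wild-type IGROV1 libraries, whose TUT4 and TUT7 were not targeted, give the level measured the same way. Both clones carry the label TUT4-; TUT7- on the LIN28A positive background. Libraries of cKO #1 came from passages 2, 3, 4 and 5, those of cKO #2 from passages 3, 4, 5 and 6, and those of the wild type from passages 6 to 9. Taken by the titles, this compares 1 clone with 1 clone. The p-values reflect read counts and the spread between consecutive passages, and say nothing of how far other clones would differ. The clone names in the labels count up from library to library, from 12.1.7 to 12.1.10 and from 14.1.17 to 14.1.20, although the titles name a single mutant for each set.

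Mature miRNAs are about as long as the guide strand that an Argonaute protein holds, and they find target mRNAs mainly through the seed, bases 2 to 8. TUT4 and TUT7 extend the 3′ end of precursors and mature miRNAs with U, and in cells with LIN28A they put longer U tails on let-7 precursors, which are then degraded. Other nucleotidyl transferases, among them TENT2 (PAPD4), add A to miRNA 3′ ends.

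The mature sequences of the miRNAs on which the comparison of U tails turns are shown from RefSeq (GRCh38.p14), 5′ to 3′, with the seed in capitals. They are 3p-arm miRNAs of the let-7 and miR-30 families, which share a seed within each family or nearly so, and miRNAs with a high U-tail share in the wild type.
let-7b-3p: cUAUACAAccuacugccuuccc
let-7f-1-3p: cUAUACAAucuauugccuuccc
miR-98-3p: cUAUACAAcuuacuacuuuccc
let-7e-3p: cUAUACGGccuccuagcuuucc
miR-30a-3p: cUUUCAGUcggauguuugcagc
miR-30e-3p: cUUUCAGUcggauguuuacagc
miR-326: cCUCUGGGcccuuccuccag
miR-760: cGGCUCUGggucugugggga
miR-324-3p: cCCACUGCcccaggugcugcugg
miR-652-3p: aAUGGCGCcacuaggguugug
The next set had a higher U-tail share in cKO #1, and its first 2 members differ from each other at 1 base.
miR-103a-3p: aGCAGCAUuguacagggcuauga
miR-107: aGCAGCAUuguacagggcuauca
miR-149-5p: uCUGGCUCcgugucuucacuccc
miR-99a-5p: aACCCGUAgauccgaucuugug
miR-18a-3p: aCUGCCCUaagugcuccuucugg

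The libraries held between 5707942 and 12203629 miRNA reads in cKO #1, between 6843290 and 12192019 in cKO #2, and between 8829819 and 13265824 in the wild type. In the matching mRNA libraries, TUT4 (listed as ZCCHC11) stood at 70.2 to 84.3 counts scaled to the library total (CPM, counts per 1000000) in the wild type, at 10.6 to 33.8 in cKO #1 and at 17.1 to 32.1 in cKO #2. TUT7 (ZCCHC6) stood at 28.0 to 38.3, 8.67 to 22.98 and 8.62 to 14.9 CPM. Both transcripts were therefore lower than the wild type in every mutant library and were not lost. LIN28A stood at 176 to 250 CPM in the wild type, at 158.996 to 237 in cKO #1 and at 234 to 325 in cKO #2. The fourth mRNA library of each clone stood apart, with TENT2 at 11.3 CPM in cKO #1 against 28.9 to 36.2 in its other libraries, and at 21.0 CPM in cKO #2 against 37.9 to 40.4. The epithelial markers miR-200a-3p, miR-200b-3p and miR-429 were present in all 12 small RNA libraries at 117 CPM or more. The other epithelial markers were at 5265 to 6162 CPM (miR-200c-3p) and 177 to 276 CPM (miR-141-3p) in the wild type and at 27.6 to 42.6 and 0.450 to 2.13 CPM in the mutants. Markers of blood cells did not exceed 2.29 CPM in any library, and miR-124-3p of neurons stayed at or under 0.175 CPM, whereas miR-9-5p, also listed for neurons, lay between 390 and 1551 CPM. Of the muscle markers, miR-206 stayed at or under 0.214 CPM, but miR-133a-3p was at 6.48 to 10.1 CPM in cKO #1 against 0.603 to 1.13 in the wild type and 0.246 to 1.75 in cKO #2, and miR-1-3p at 42.4 to 55.0 CPM in cKO #1 against 4.30 to 8.72 and 4.82 to 8.20. The liver marker miR-122-5p was at 4.28 to 6.78 CPM in the wild type, 10.2 to 17.6 in cKO #1 and 7.45 to 11.9 in cKO #2. Of the fibroblast and smooth muscle markers, miR-145-5p was at 123 to 164 CPM in the wild type and 0.246 to 2.05 in the mutants, and miR-143-3p at 2863 to 3490 and 12.6 to 102.9. The part of other cells in the differences below was not tested. The share of reads modified at the 5′ end split replicates 1 and 2 (0.371% to 0.387% in the mutants) from replicates 3 and 4 (0.267% to 0.278%) in both clones alike. The library-wide difference in U tails was therefore also taken within replicates 1 and 2 and within replicates 3 and 4.

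First, tailing was compared over whole libraries. Both clones had lost most U tails, and cKO #2 held slightly more of them. A 3′ tail made of U alone was carried by 0.356%, 0.348%, 0.328% and 0.335% of miRNA reads in replicates 1 to 4 of cKO #1 and by 0.445%, 0.432%, 0.408% and 0.411% in cKO #2. The wild type had 2.45% ± 0.146 (SD, n = 4). The clones did not overlap, and the difference of 0.0824 percentage points had an exact two-sided permutation p of 0.0286, the smallest that 4 against 4 libraries can give. It was 0.0865 points within replicates 1 and 2 and 0.0783 within replicates 3 and 4. Almost all U tails that remained were a single U: 95.7% to 96.3% of them in the mutant libraries, against 89.8% to 90.4% in the wild type.

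The difference in U tails sat on few abundant miRNAs. Of its 0.0824 points, miR-23b-3p held 0.0321, miR-30a-3p 0.0225 and miR-27b-3p 0.0187. Without the 10 most abundant miRNAs the shares were 0.759% and 0.752%, and the clones were no longer apart (difference of -0.00656 points, exact permutation p = 0.657). When each miRNA counted equally, the mean share was 1.03% ± 0.0585 in cKO #1 and 1.39% ± 0.0486 in cKO #2 (SD, n = 4; exact permutation p = 0.0286). U tails on 3p-arm reads were at 0.781% ± 0.0245 and 0.973% ± 0.0254 (wild type 7.38%; exact permutation p = 0.0286, n = 4). On 5p-arm reads they were at 0.110% ± 0.00390 and 0.1205% ± 0.00822 (wild type 0.459%; exact permutation p = 0.0857, n = 4), and the ranges overlapped.

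Tails of A, C and G were measured in the same reads. A tails were on 2.73%, 2.77%, 2.75% and 2.42% of reads in cKO #1 and on 3.26%, 3.34%, 3.16% and 2.88% in cKO #2, with 3.11% in the wild type. cKO #2 was higher in every library (difference of 0.494 points, exact permutation p = 0.0286). miR-21-5p, an abundant miRNA long linked to tumours, alone held 0.535 points and differed in level between the clones. With each miRNA counted equally, the order turned: 7.11% ± 0.148 in cKO #1 and 6.78% ± 0.134 in cKO #2 (SD, n = 4; exact permutation p = 0.0286). C tails were at 0.173% and 0.182% (exact permutation p = 0.457, n = 4), both above the 0.0698% of the wild type. G tails were at 0.0665% and 0.0841% (exact permutation p = 0.0286, n = 4), both under the 0.0954% of the wild type.

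**Figure D1:**
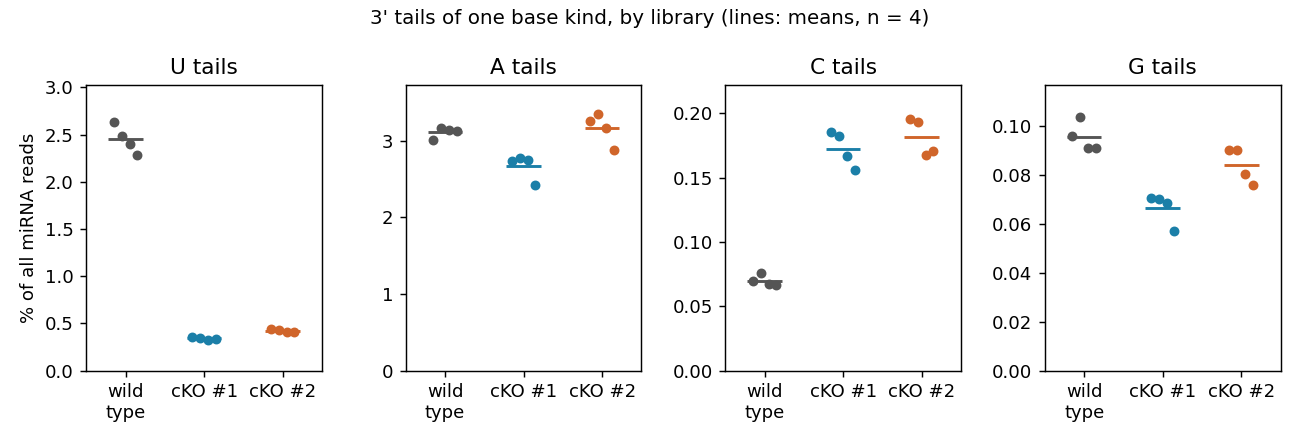
Percent of all miRNA reads with a 3′ tail of U, A, C or G alone, in each library of wild-type IGROV1, cKO #1 and cKO #2; each panel has its own axis from 0, points are libraries 1 to 4 from left to right, and lines are means. U tails lie at 0.328% to 0.356% in cKO #1 and at 0.408% to 0.445% in cKO #2, far under the wild type.

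Next, the U-tail share of each miRNA was compared between the clones. Of 260 miRNAs with enough reads (at least 50 in each of the 8 libraries and at least 10 U-tailed reads in all), 21 had a higher share in cKO #2 (8.08%) and 23 a lower share (8.85%), by edgeR's quasi-likelihood test on tailed and other reads at a Benjamini-Hochberg adjusted p under 0.01. Together these were 44 (16.9%), and the clones did not overlap for 60 of the 260 (23.1%). Among them, miR-7-1-3p, miR-181a-2-3p and miR-362-3p met the minimum of 10 U-tailed reads through cKO #2 alone. miR-4454 met it through cKO #1 alone. The filter thus fixes the direction of these miRNAs. The median log2 odds ratio was 1.55 over the 21 and -0.48 over the 23, which the call itself selects, and -0.08 over all 260. A stricter fit, limma on the logit of the share, takes 1 share per library. It called 16 and 4, of which 16 and 3 were among the same miRNAs. The edgeR p-values for tails rest on read counts and a spread partly pooled over miRNAs, and can be far smaller than those of limma. miRNAs of the 3p arm by name made up 17 of the 21 (81.0%), 10 of the 23 (43.5%) and 112 of all 260 (43.1%).

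**Figure D2:**
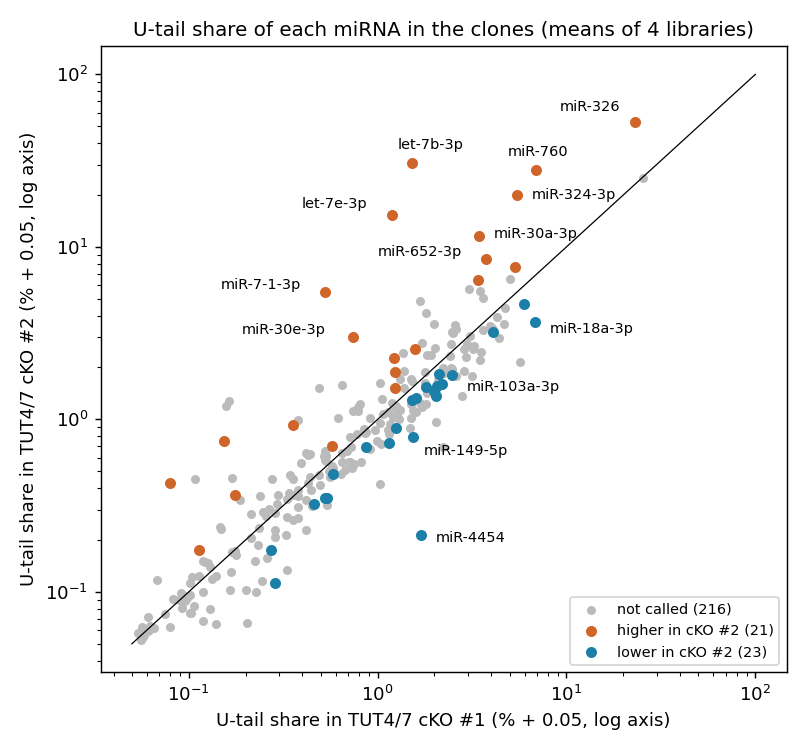
Mean U-tail share of the 260 tested miRNAs in cKO #1 (x axis) and cKO #2 (y axis), in percent with 0.05 added and on log axes; each point is a miRNA, colours mark the edgeR call, and the line marks equal shares. The miRNAs called higher in cKO #2 reach 53.2% (miR-326), with a median log2 odds ratio of 1.55, against -0.48 for those called lower. Of the latter, miR-18a-3p has the highest share in cKO #1, at 6.75%.

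The highest odds ratios for U tails were on let-7b-3p and let-7e-3p, which are 3p arms of the let-7 family, the strands opposite the let-7 guide strands. let-7b-3p had a U-tail share of 2.62%, 0.668%, 0.826% and 1.78% in cKO #1 and of 34.8%, 29.3%, 25.9% and 32.3% in cKO #2. Its log2 odds ratio was 4.87 ± 0.34 (SE, edgeR adjusted p = 6.62e-42, limma adjusted p = 2.04e-04). The wild type stood at 70.4% ± 6.07 (SD, n = 4). Each library of cKO #2 was thus far above every library of cKO #1, and under every library of the wild type. let-7e-3p had 0.704%, 2.06%, 1.14% and 0.680% against 16.9%, 17.1%, 13.4% and 13.7% (log2 odds ratio 3.79 ± 0.41, edgeR adjusted p = 3.31e-18). Its share in cKO #2, 15.3% ± 1.999, lay beside the 16.1% ± 2.16 of the wild type (SD, n = 4). let-7d-3p was also called higher, from 1.12% of 5075 reads to 2.40% of 2670 reads, at a wild-type share of 0.492%, although 1 library of cKO #2 lay within the range of cKO #1. Its log2 odds ratio was 1.09 ± 0.32 (SE, edgeR adjusted p = 0.00456), and limma did not call it (adjusted p = 0.0744).

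Apart from let-7a-3p, the other let-7 3p arms had too few reads for that test, and values follow. miR-98-3p, from an intron of HUWE1 (hairpin at chrX:53556223-53556341, minus strand, hg38), had 120 reads over the 4 libraries of cKO #1 and 300 over those of cKO #2. Its U-tail share was 3.12%, 10.8%, 5.71% and 0% in cKO #1 and 75.3%, 81.7%, 82.2% and 77.8% in cKO #2. The 0% stands for 0 of 16 reads, which allows a share of up to 18.8%. The wild type had 81.6% ± 6.75, so that cKO #2 overlapped with it (79.2% ± 3.32, SD, n = 4) and cKO #1 did not (exact permutation p between clones = 0.0286). For let-7f-1-3p the pooled share was 2.90% of 138 reads in cKO #1 (95% Wilson interval 1.13% to 7.22%), with 71.4% in the wild type. In cKO #2 it was 5.88%, 40.0%, 42.9% and 100% on 17, 10, 7 and 4 reads, so that the deepest library lay near the 4.65% of the highest library of cKO #1. Pooled, cKO #2 had 31.6% of 38 reads. It had 52.4% of 21 without that library, and 28.6%, 29% and 23.5% without each of the others in turn. These values were added after the data were seen. let-7g-3p had 4.49% of 312 reads and 21.2% of 52 reads. let-7f-2-3p had 1.35% in cKO #1 and 8.62% of 116 reads in cKO #2, with 7.87% in the wild type. let-7i-3p had 1.28% (0.801% to 2.04%) and 0.629% (0.111% to 3.48%) in the clones. let-7c-3p had 3.03% of 33 reads in cKO #1 and 0% of 15 in cKO #2, which allows up to 20%. let-7a-3p, the most abundant of these arms, stayed at 0.171% and 0.278% and was not called. These intervals cover counting error only.

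Outside let-7, miR-30a-3p, miR-30e-3p and several strongly tailed miRNAs had higher U-tail shares in cKO #2. The other miR-30 3p arms tested, miR-30c-2-3p (0.0386% and 0.0392%) and miR-30d-3p (0.108% and 1.14%, overlapping), were not called (edgeR adjusted p = 0.960 and 0.106). miR-30a-3p, which had 22119 reads or more in each mutant library, stood at 3.30%, 3.35%, 3.30% and 3.70% against 11.4%, 11.5%, 11.4% and 11.5% (log2 odds ratio 1.88 ± 0.06, edgeR adjusted p = 1.75e-170, limma adjusted p = 3.05e-06). Its spread between libraries was small beside a gap of 8.04 points, and the wild type was at 31.0%. miR-326, from an intron of ARRB1, had the highest shares among miRNAs called higher, with 26.9%, 23.6%, 17.1% and 24.5% against 48.4%, 53.8%, 52.4% and 58.2% (wild type 79.5%; log2 odds ratio 1.93 ± 0.24, edgeR adjusted p = 3.34e-14). miR-760 had 9.09%, 5.62%, 3.36% and 9.43% against 27%, 26.83%, 25.4% and 31.9% (wild type 56.9%; edgeR adjusted p = 3.69e-12). None of these 3 overlapped between the clones, which held for 23.1% of all 260 tested.

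miR-324-3p, whose precursor is a known substrate of TUT4/7, had 3.39%, 4.58%, 5.07% and 8.76% against 20.5%, 19.6%, 17.4% and 22.1% (wild type 62.1%; log2 odds ratio 2.23 ± 0.24, edgeR adjusted p = 7.66e-18). Its partner on the 5p arm, miR-324-5p, stood at 0.864% ± 0.334 and 0.969% ± 0.198 and was not called (edgeR adjusted p = 0.963). miR-652-3p had 3.72% ± 0.551 and 8.40% ± 0.469 (SD, n = 4; edgeR adjusted p = 1.38e-29), both far from the 58.8% of the wild type. miR-27a-3p stood at 3.35% and 6.39%, miR-330-3p at 5.28% and 7.56%, and miR-7-1-3p at 0.479% and 5.40%. Of these, miR-7-1-3p met the minimum of U-tailed reads through cKO #2 alone, which fixes its direction. limma called miR-27a-3p too but not miR-330-3p (adjusted p = 0.0780). miR-148b-3p was at 0.268%, 0.290%, 0.305% and 0.365% against 0.878%, 0.853%, 0.882% and 0.896%, where the wild type had 35.02% (log2 odds ratio 1.55 ± 0.12, edgeR adjusted p = 1.33e-35).

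By the rule for U tails kept in one clone only (at least 1% in its 4 libraries, under 1% in the other 4, and called), cKO #2 had 1 miRNA of 345 with enough reads (0.29%) and cKO #1 had 3 (0.87%). The one of cKO #2 was miR-30e-3p, which differs from miR-30a-3p at 1 base, at 0.846%, 0.619%, 0.507% and 0.801% against 2.82%, 3.13%, 2.61% and 3.22% (log2 odds ratio 2.13 ± 0.16, edgeR adjusted p = 3.23e-36). Those of cKO #1 were miR-107, miR-99a-5p and miR-149-5p. miR-107 had 1.28%, 1.04%, 1.27% and 1.20% against 0.885%, 0.740%, 0.912% and 0.823%. miR-99a-5p had 1.05%, 1.17%, 1.05% and 1.097% against 0.746%, 0.854%, 0.538% and 0.581%. miR-149-5p had 1.28%, 1.43%, 1.77% and 1.496% against 0.653%, 0.784%, 0.619% and 0.906%. These 3 sat just on either side of the limit, and limma did not call them (adjusted p = 0.0326, 0.0317 and 0.01002). The list depended on the limit: at 0.5% it held miR-148b-3p for cKO #2 and miR-4454 for cKO #1, and at 2% it held miR-30e-3p and miR-7-1-3p for cKO #2 and miR-103a-3p for cKO #1. Of these, miR-4454 and miR-7-1-3p met the minimum of 10 U-tailed reads only through the clone they are listed for, which fixes their direction. No miRNA was on the list under all 3 limits.

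Among miRNAs with a lower U-tail share in cKO #2, 20 of 23 gaps were under 1 percentage point. miR-103a-3p, from introns of PANK3 and PANK2, had 2.40%, 2.43%, 2.18% and 2.73% against 1.75%, 1.74%, 1.71% and 1.83% (log2 odds ratio -0.48 ± 0.06, edgeR adjusted p = 1.28e-15; limma adjusted p = 0.00716). miR-18a-3p of the miR-17-92 cluster had 7.04%, 6.52%, 5.58% and 7.88% against 4.21%, 3.19%, 3.67% and 3.37% (edgeR adjusted p = 5.02e-04, limma 0.0328). miR-345-5p stood at 5.89% and 4.61%, miR-484 at 4.05% and 3.16%, and miR-23a-3p at 1.94% and 1.41%. None of these was called by limma (adjusted p = 0.0887, 0.161 and 0.0232). The libraries of miR-484 overlapped. miR-23b-3p, 1 base away from miR-23a-3p over their shared length, went the other way, at 1.19% and 1.83% (edgeR adjusted p = 4.66e-09), and reads exchanged between such near copies cannot be told apart from a change in each.

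Most miRNAs had lower U-tail shares than the wild type in both clones. Among 191 tested miRNAs with a wild-type share of at least 1%, the mean share was lower than in the wild type for 188 in cKO #1 and for 190 in cKO #2. The median share left was 18.1% of the wild-type value in cKO #1 and 16.7% in cKO #2. For the 19 of them called higher in cKO #2, which the call itself selects, the medians were 6.32% and 20.5%.

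The base that follows the mature end in the hairpin was read from RefSeq, because a U encoded there cannot be told from an added U where the end of the read varies. A sequence was matched for 199 of the 260 tested miRNAs, and 61 of these (30.7%) had U next. It was U for 5 of 18 miRNAs called higher in cKO #2 (27.8%), among them let-7b-3p and miR-30a-3p, and for 2 of 18 called lower (11.1%). miR-98-3p and let-7f-1-3p also have U next, whereas miR-326, miR-760, miR-324-3p, let-7e-3p, miR-30e-3p and miR-652-3p do not. In the files, 98.5% to 99.2% of U tails of miR-30a-3p carried position 0 in the clones, but whether that position counts from the annotated end was not stated in the sources used here.

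A tails were then compared miRNA by miRNA. Of 328 miRNAs tested, 11 had a higher A-tail share in cKO #2 (3.35%) and 14 a lower one (4.27%) by edgeR at adjusted p under 0.01, together 7.62%. limma called 4 and 9, and edgeR called 5 and 9 without replicate 1 of cKO #1, 9 lower without its replicate 3, 4 higher without replicate 2 of cKO #2, and 5 and 9 without its replicate 3. Of the let-7 3p arms tested, let-7b-3p, let-7d-3p and let-7e-3p were in the lower group. The most abundant arm, let-7a-3p (0.482% and 0.307% pooled), was not called. let-7b-3p had 53.7%, 54.6%, 49.2% and 48.5% of reads with A tails in cKO #1 and 25.9%, 30.6%, 28.9% and 26.9% in cKO #2 (wild type 2.63%; log2 odds ratio -1.46 ± 0.17, edgeR adjusted p = 3.12e-06). let-7d-3p had 46.7% ± 2.29 and 24.3% ± 2.42 (SD, n = 4; wild type 3.98%; edgeR adjusted p = 5.86e-08). let-7e-3p had 9.63% and 4.24%. Both clones thus carried more A tails on these ends than the wild type, and cKO #1 the most.

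miR-324-3p had 60.3%, 60.7%, 57.3% and 58.8% against 46.0%, 48.6%, 44.04% and 46.6% (wild type 9.95%; edgeR adjusted p = 8.17e-04), and miR-652-3p had 30.9% and 25.6% (wild type 12.1%). For miR-98-3p, A tails stood at 55.3% ± 3.37 in cKO #1 and at 4.29% ± 0.661 in cKO #2, with 2.56% ± 1.88 in the wild type (SD, n = 4; exact permutation p = 0.0286). let-7i-3p had 69.3% ± 4.02 and 31.2% ± 4.52 (exact permutation p = 0.0286, n = 4) without the matching gap in U. Pooled A-tail shares were lower in cKO #2 for let-7f-1-3p (53.6% and 18.4%) and let-7g-3p (52.6% and 28.8%), but not for let-7f-2-3p (4.05% and 4.31%). miR-760, in spite of its gap in U tails, had 18.2% and 18.4% A tails and was not called (edgeR adjusted p = 0.990). Reads of miR-760 with no 3′ tail at all were 61.5% in cKO #1 and 45.0% in cKO #2, over the 4 libraries together.

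Higher A-tail shares in cKO #2 were found on other miRNAs. miR-194-5p had 5.09%, 4.93%, 4.67% and 4.43% against 8.50%, 8.25%, 8.28% and 7.85% (edgeR adjusted p = 1.83e-07). miR-200c-3p had 9.70% and 16.99%, on few reads, miR-28-3p 17.7% and 22.2%, miR-17-5p 18.4% and 22.2%, and miR-190a-5p 8.45% and 10.9%. miR-103a-3p was called at 0.0173% and 0.0302%, with libraries that overlapped. The clones did not overlap for the others named here as called, nor for 56 of all 328 tested (17.1%).

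**Figure D3:**
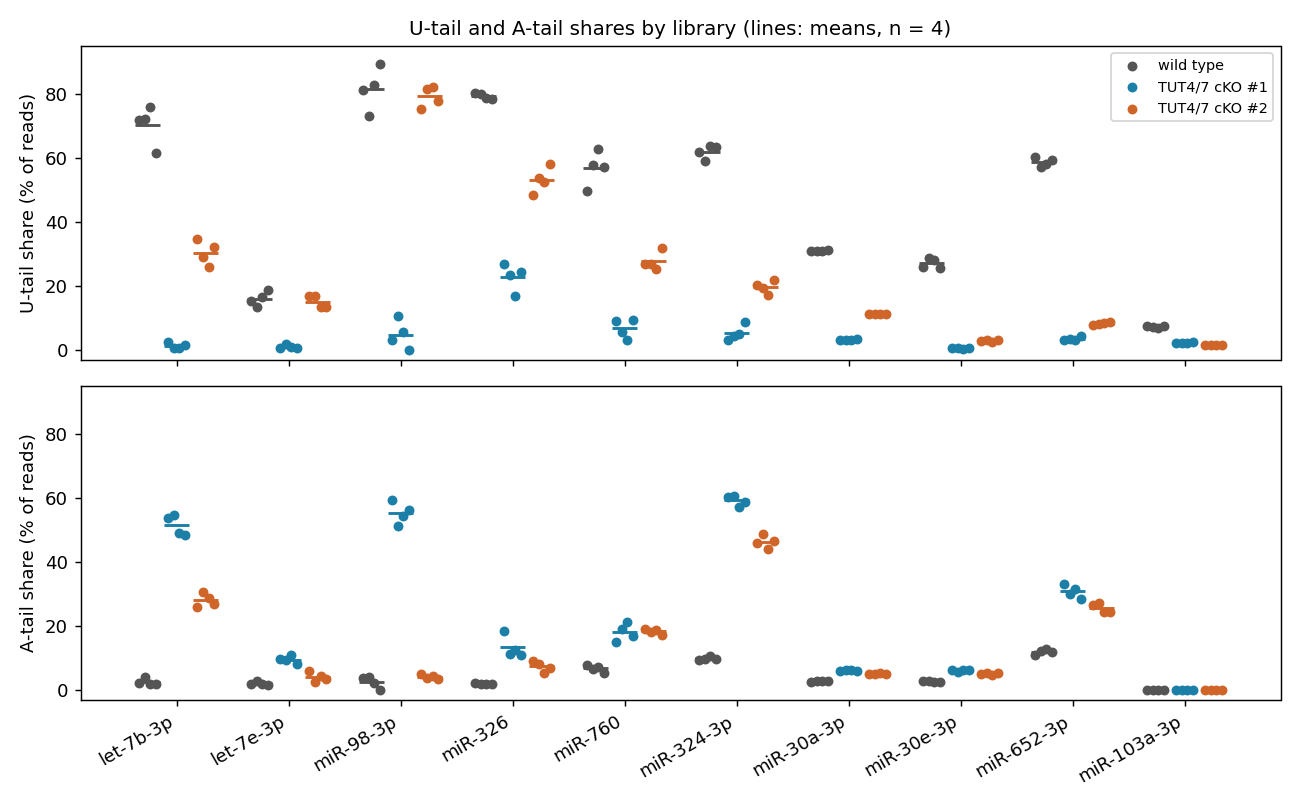
U-tail share (top) and A-tail share (bottom), in percent of the reads of each miRNA, for 10 miRNAs in the wild type, cKO #1 and cKO #2; points are libraries and lines are means of 4. let-7b-3p, let-7e-3p and miR-98-3p carry U tails at 30.5%, 15.3% and 79.2% in cKO #2 and at 1.47%, 1.14% and 4.91% in cKO #1, where their A-tail shares are higher.

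Finally, miRNA abundance was compared. Of 695 miRNAs tested, 116 were higher in cKO #2 (16.7%) and 105 lower (15.1%) by edgeR's quasi-likelihood test at adjusted p under 0.01, together 221 (31.8%). The median log2 difference over all 695 was -0.01. Levels below are CPM of all miRNA reads, while log2 differences use edgeR's TMM scaling, which lowers them by 0.1 against the ratio of the CPM values. Of the 221, 24 met the filter on low counts (about 1.13 CPM in 4 libraries) in 1 clone alone, the one where they were high. The clones did not overlap for 39.6% of all 695 and for 104 of the 179 miRNAs with a mean of 100 CPM or more (58.1%).

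let-7 guide strands restrain growth genes and are the classic targets of LIN28A with TUT4/7. Of the 9 tested, 6 were lower in cKO #2 and 3 were not called, with a median log2 difference of -0.39. Of all 695 miRNAs tested, 15.1% were lower and 16.7% higher. let-7g-5p, from an intron of WDR82, stood at 14841, 15623, 14977 and 15054 CPM in cKO #1 and at 3662, 3571, 3350 and 3246 in cKO #2, on either side of the 5991 ± 587 of the wild type (log2 difference -2.23 ± 0.07, edgeR adjusted p = 3.88e-10). let-7i-5p was at 2450, 2809, 2653 and 2823 CPM against 434, 428, 423 and 403, again around the 1201 ± 94.7 of the wild type (log2 difference -2.77 ± 0.10, edgeR adjusted p = 4.08e-10). let-7d-5p had 413 and 144 CPM, and let-7f-5p 4136 and 2061. let-7b-5p (637 and 522.5 CPM, -0.39) and let-7e-5p (561 and 487.1 CPM, -0.31) were called with libraries that overlapped. let-7a-5p (log2 difference -0.17, adjusted p = 0.111), let-7c-5p (-0.29, adjusted p = 0.0974) and miR-98-5p (-0.10, adjusted p = 0.510) were not called by edgeR. Of 18 let-7 family members tested, both arms counted, 12 were lower in cKO #2, 1 was higher (miR-98-3p, 3.48 and 7.47 CPM) and 5 were not called, with a median of -0.81. Of the 12, let-7g-3p (9.12 and 1.25 CPM) and let-7f-1-3p (4.15 and 0.915 CPM) met the filter on low counts in cKO #1 alone, which fixes their direction.

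The miR-200 family, which keeps epithelial cells epithelial by repressing ZEB1 and ZEB2, was split by locus. miR-200b-3p stood at 1713, 1719, 1662 and 1481 CPM in cKO #1 and between 366 and 447 in cKO #2 (wild type 2427; log2 difference -2.16 ± 0.08, edgeR adjusted p = 7.94e-10). miR-200a-3p (813 and 190 CPM) and miR-429 (522.6 and 119 CPM) lie beside it on chromosome 1 and were lower too. miR-200c-3p and miR-141-3p, from chromosome 12, were low in both clones: 39.1 ± 4.83 and 31.2 ± 3.93 CPM against 5633 in the wild type, and 1.44 and 1.02 CPM against 214. The first was called with a log2 difference of -0.43 (edgeR adjusted p = 0.00704) although its libraries overlapped, and the second was not (adjusted p = 0.246). Of the 7 members tested, 6 were lower in cKO #2, with a median of -2.16, against 15.1% lower over all 695 miRNAs.

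Further miRNAs were lower in cKO #2. miR-10a-5p, from an intron of HOXB3, stood at 60142, 55079, 57425 and 59864 CPM against 20126, 18195, 18872 and 21065, the latter near the 16647 ± 718 of the wild type (log2 difference -1.67 ± 0.11, edgeR adjusted p = 4.65e-08). HOXB3 itself had 264 CPM and 254 CPM in the mRNA libraries of the clones, against 117 in the wild type, a comparison chosen after the values were seen. miR-10a-3p moved with its partner (1280 and 394 CPM). In the miR-17-92 cluster and its paralogues, 10 of 21 were lower and 3 higher, against 15.1% and 16.7% of all 695 tested. Among them, miR-92a-3p stood at 28754 and 19298 CPM (log2 difference -0.68). Of the chromosome 19 miRNA cluster (C19MC), mostly active in placenta and stem cells, 45 members had any read and 4 were tested. These 4 stood at 1.92 to 15.7 CPM in cKO #1 and at 0.234 to 1.24 CPM in cKO #2, so that they passed the filter on low counts through cKO #1, which fixes their direction. The muscle miRNA miR-1-3p had 42.4, 54.8, 49.7 and 55.0 CPM against 5.48, 8.20, 5.04 and 4.82 (wild type 6.90; edgeR adjusted p = 1.25e-08). miR-607 (327 and 32.2 CPM) was lower too, and 99.8% or more of its U tails in the clones carried position -17, where those of miR-30a-3p carried 0. What that position counts from is not stated in the sources used here.

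Higher in cKO #2 were several miRNAs that stood far under the wild type in cKO #1. miR-199a-5p stood at 346, 292, 207 and 256 CPM in cKO #1 and at 4216, 3913, 4082 and 4342 in cKO #2, with 2462 ± 185 in the wild type (log2 difference 3.81 ± 0.16, edgeR adjusted p = 1.18e-09). miR-214-3p, which lies near it in the lncRNA DNM3OS (miR-214 hairpin at chr1:172138798-172138907 and miR-199a-2 at chr1:172144535-172144644, minus strand, hg38, both exonic), had 171, 132, 102 and 71.7 CPM against 2392, 2059, 1755 and 1471 (wild type 843; log2 difference 3.90 ± 0.21, adjusted p = 1.47e-08 by edgeR). DNM3OS had 0.703 CPM on average in the mRNA libraries of cKO #1, 12.8 in cKO #2 and 6.43 in the wild type, also looked up after the values were seen. A further locus of miR-199a-5p, MIR199A1 on chromosome 19, has no host gene on its strand, and the counts pool both loci. miR-199a-3p and miR-199b-3p (log2 differences 3.77 and 3.71) have the same mature sequence, and their counts cannot be told apart.

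miR-135a-5p had the widest difference among abundant miRNAs, at 16.2, 17.9, 17.2 and 26.63 CPM in cKO #1 and at 533, 525.6, 517.3 and 492.6 in cKO #2 (wild type 1055; log2 difference 4.64 ± 0.18, edgeR adjusted p = 8.22e-10). miR-135b-5p, from another locus and 1 base different, stood at 5.47 and 87.2 CPM. The miR-302 cluster, a marker of pluripotent cells, was lower than the wild type in both clones and less so in cKO #2. miR-302b-3p stood at 275, 382.02, 354 and 333 CPM against 1700, 1590, 1862 and 1907, with 18038 ± 3126 in the wild type (log2 difference 2.30 ± 0.14, edgeR adjusted p = 3.07e-08). Listed with the related cluster that begins at miR-371a, these miRNAs made up 14 with any read, and the 9 tested, of miR-302 and miR-367-3p, were higher in cKO #2. miR-21-5p had 34905, 39155, 38355 and 36474 CPM against 107210, 110100, 115150 and 102420 (wild type 211900; log2 difference 1.45 ± 0.08, edgeR adjusted p = 2.04e-08). In the miR-15/16 family 9 of 13 were higher, among them miR-503-5p (465 and 1152 CPM). In the family of miR-34 and miR-449 4 of 7 were higher, among them miR-34a-5p (412.1 and 1016 CPM), a target of p53. Over all 695 miRNAs tested, 16.7% were higher.

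**Figure D4:**
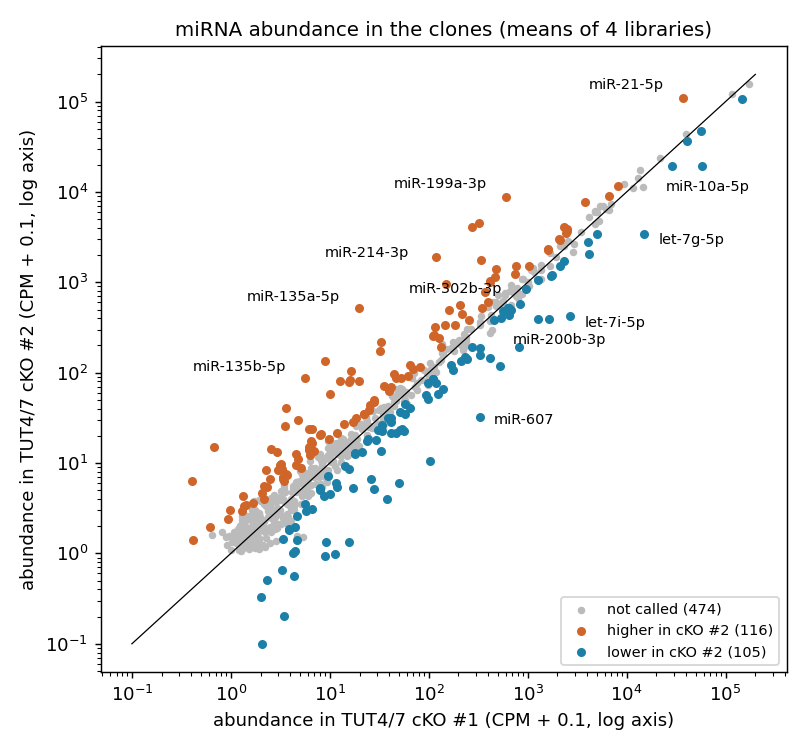
Mean abundance of the 695 tested miRNAs in cKO #1 (x axis) and cKO #2 (y axis), in CPM with 0.1 added and on log axes; each point is a miRNA, colours mark the edgeR call, and the line marks equal levels. let-7g-5p lies under the line at 15124 and 3457 CPM, and miR-199a-3p above it at 607 and 8871 CPM.

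Counts of the other lists follow, beside 16.7% higher and 15.1% lower of all 695 miRNAs tested. None of the 6 members of the cluster of miR-183, miR-96 and miR-182, of the 4 of the cluster of miR-221 and miR-222 or of the 7 of the miR-29 family was called, with medians of -0.29, 0.16 and 0.13. In the miR-23/27/24 clusters 1 of 11 was called (miR-23a-3p, 0.38). In the miR-181 family 4 of 8 were higher, of which miR-181b-3p (0.307 and 6.24 CPM) met the filter on low counts in cKO #2 alone, in the miR-99/100 and miR-125 families 2 of 9, and in the HOX cluster miRNAs 4 of 6 were higher and 2 lower. The 1 tested member of the cluster of miR-143 and miR-145, miR-143-3p, was higher (15.7 and 77.9 CPM, with 3179 in the wild type). The 1 tested member of the DLK1-DIO3 cluster was not called, and none of the X-linked cluster from miR-506 to miR-514 had enough reads. The miR-30 family was mixed, with 6 of 11 lower, among them miR-30a-3p (5026 and 3451 CPM) and miR-30e-3p (642 and 435 CPM), and 2 higher.

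The U-tail share and the abundance did not move together in one way. let-7b-3p, with 30.5% against 1.47% U tails, had 35.1 and 29.7 CPM (log2 difference -0.35, edgeR adjusted p = 0.0499), and miR-760 had 18.2 and 25.6 CPM (0.37, adjusted p = 0.0816). miR-30a-3p was lower in the clone with more U tails (log2 difference -0.64, edgeR adjusted p = 7.61e-05), as was miR-652-3p (631 and 525.1 CPM, -0.37, adjusted p = 0.00268). miR-98-3p was higher in the clone with more U tails. miR-324-3p had 42.1 and 55.7 CPM, both under the 131 of the wild type (log2 difference between clones 0.30, edgeR adjusted p = 0.0482), and miR-324-5p had 89.7 and 108 CPM (adjusted p = 0.236). miR-103a-3p had 13111 and 14102 CPM (log2 difference -0.00, adjusted p = 0.993).

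**Figure D5:**
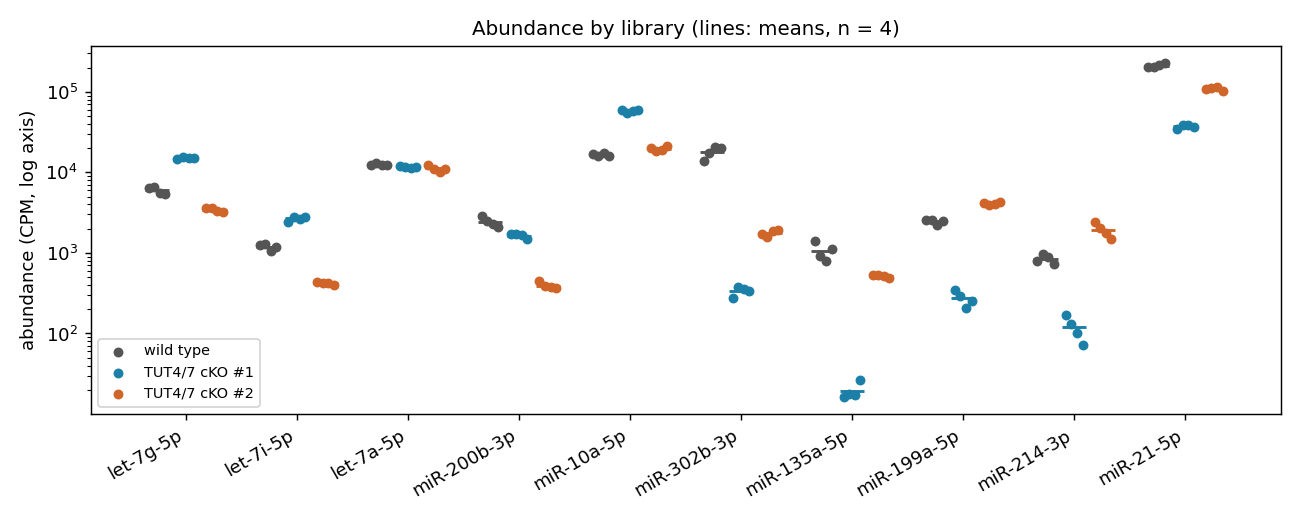
Abundance of 10 miRNAs in each library of the wild type, cKO #1 and cKO #2, in CPM on a log axis; points are libraries and lines are means of 4. let-7g-5p and let-7i-5p lie above the wild type in cKO #1 and under it in cKO #2, miR-199a-5p and miR-214-3p the other way round, and let-7a-5p is at a like level in all 3.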

How the data were processed

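Small RNA was sequenced from IGROV1 wild type and from the TUT4/7 cKO #1 and #2 clones, 4 libraries each, made with a kit that has 4 random bases at each adapter. Per the study's methods, adapters were trimmed with cutadapt, the 4 random bases were removed from each end, and reads were mapped with miRDeep2 or with Chimira, which also lists each non-templated addition. The methods describe these bases as molecular identifiers by which PCR duplicates can be found, but whether duplicates were collapsed in the deposited counts is not given in the sources used here. The authors deposited, per library, read counts for each miRNA and modification (not normalized), which were summed over modifications to give counts per miRNA. mRNA counts were deposited as well (per the methods made on hg38 with Trimmomatic 0.39, HISAT2 2.1.0 and HTSeq) and served only for single genes. A 3′ tail was a modification of type mod on the 3p end made of a single kind of base. Of the whole-series miRNA table, 64 columns of per-sample values were not used.

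Abundance was tested with edgeR 4.0.16 (quasi-likelihood, TMM scaling, filterByExpr) on the 8 mutant libraries, and tails with the same test on tailed and other reads, with 50 reads or more in each library and 10 tailed reads over the 8. Calls have a Benjamini-Hochberg adjusted p under 0.01. Library shares were compared by an exact two-sided permutation test. limma 3.58.1 (logit, 0.5 reads added), DESeq2 1.42.0 and other settings were alternatives. R 4.3.3, Python 3.11.15, scipy 1.17.1 and matplotlib 3.10.9 were used, and the scripts were tested on simulated data. Intervals are Wilson 95% intervals, and upper limits for shares of 0% are 3 reads over the number of reads. Both cover counting error only, since reads need not be independent molecules. Depth was 5707942 to 13265824 miRNA reads.

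Named miRNAs were the 12 with the largest called difference in abundance in each direction (at least 100 CPM, no overlap), the 10 most abundant, called members of the lists, those with U tails kept in one clone, the 10 (U) or 5 (A) with the largest called difference in points in each direction, and 12 that the study discusses, of which the text gives examples. Members and lists were chosen with earlier results of these data known. miR-148b-3p, miR-1-3p, miR-98-5p and the host genes were singled out after their values were seen. Host genes are from GENCODE v44, and hairpin positions and sequences are from RefSeq.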

Additional observations from a re-analysis of the deposited data

Results flagged for a closer look

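In 176 groups of 4 libraries tested, 7 had 1 library whose gap to its nearest neighbour, as a part of the whole range, exceeded Dixon's 95% critical value, and chance gives about 1 in 20. The fourth library of cKO #1, the shallowest, was the one that stood apart in 5 of them. It was lowest in the A-tail share of all reads (ratio 0.878; 2.42% against a median of 2.75% in the others), in the G-tail share (0.863; 0.0571% against 0.0700%) and in the A-tail share of miR-324-5p (0.931; 8.39% against 9.34%). It was highest in the abundance of miR-135a-5p (0.833; 26.63 CPM against 17.2) and in the U-tail share of miR-30a-3p (0.874; 3.70% against 3.30%). The third library of cKO #1 was lowest in the U-tail share of miR-27a-3p (0.876; 2.94% against 3.47%). The second library of cKO #2 was highest in the U-tail share of miR-324-5p (0.897; 1.26% against 0.882%).

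For 26 of the 695 miRNAs tested for abundance, the clones lay on opposite sides of the wild type without overlap. Among those named, edgeR's test between the clones gave log2 differences of -3.45 for miR-607, -3.36 for let-7i-3p, -2.77 for let-7i-5p, -2.23 for let-7g-5p and -1.16 for miR-3180-5p, which were above the wild type in cKO #1. It gave 1.43 for miR-9-5p, 1.53 for miR-450b-5p, 3.71 for miR-199b-3p, 3.77 for miR-199a-3p, 3.81 for miR-199a-5p and 3.90 for miR-214-3p, which were above the wild type in cKO #2.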

How the results depend on the processing

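With 1 clone in each arm and libraries from consecutive passages, the p-values do not reach beyond these clones, and reads under 50 per library limit the let-7 3p arms. For named miRNAs, 1250 of 1335 values under an alternative kept direction and side of the threshold, 80 lost the call, 4 gained it and 1 turned: miR-30d-5p was at a log2 difference of 0.72 in the miRDeep2 counts. Without the 10 most abundant miRNAs the difference in U-tail share was -0.00656 points and that in A-tail share -0.211, and with equal weight per miRNA the latter was -0.328. limma called 4 miRNAs with a lower U-tail share, and 4 with a higher and 9 with a lower A-tail share. Leaving out 1 library in turn gave 19 to 21 higher and 16 to 25 lower U-tail shares, 93 to 113 higher and 81 to 109 lower abundances, and 4 to 13 higher and 9 to 15 lower A-tail shares. The A-tail counts, higher and lower, were 5 and 9 without replicate 1 of cKO #1, 9 lower without its replicate 3, 4 higher without replicate 2 of cKO #2, and 5 and 9 without its replicate 3. U tails kept in one clone numbered 1 for cKO #1 at 0.5%, 2 for cKO #2 and 1 for cKO #1 at 2%, and likewise 2 and 1 for any tail that holds a U; without 1 library they numbered 1 to 2 (2 without replicate 2 of cKO #1, which adds miR-7-1-3p) and 3 to 4. The difference in A-tail share ranged from 0.411 to 0.588 points and that in G-tail share from 0.0144 to 0.0204 (exact permutation p = 0.0571 for both without any one library of cKO #1). On 5p-arm reads the U-tail difference ranged from 0.00746 to 0.0134 points, the latter without replicate 4 of cKO #2 (exact permutation p = 0.0286). Same-numbered libraries correlated at 0.149, 0.174, 0.0166 and 0.372 in their deviations, and replicate 3 did not correlate best with its own number, so the numbers were not taken to pair the libraries. With the replicate number as a block, 262 abundances were called, 128 of them lower, 19 U-tail shares were higher and 24 lower, and 20 A-tail shares were higher and 22 lower.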
